A study of Rattus norvegicus with 8 samples.

Results

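miR-378a is a microRNA hairpin that lies inside Ppargc1b, the gene of a transcriptional coactivator of mitochondrial and lipid metabolism, and its mature arms are rno-miR-378a-5p and rno-miR-378a-3p. The miRNA was chosen from the difference of its 5p arm between injured and control tissue in an earlier look at these same arrays, and from the gap between its stored total and its probes. Its own group differences are therefore given below as a description, without a test. Features were taken by name, as every rat feature that begins with rno-miR-378 on the array and in the deposited table of values, and 2 of 758 rat miRNA features met this rule. They were named rno-miR-378a-5p and rno-miR-378b. No feature carried the name rno-miR-378a-3p, but the probes of rno-miR-378b were annotated in the files to rno-miR-378a-3p as well, as described below, and that feature is the reading of the 3p arm used here.

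Prostatic urethra tissue of male Sprague Dawley rats aged 10 to 12 months was collected 5 days after surgery. In the TULP group (transurethral laser prostatectomy, simulated), the urothelium of that site had been vaporized with a thulium laser, guided by a microcystoscope passed through the bladder. In the sham group, the authors' methods describe an abdominal incision alone, without laser treatment. Opening of the bladder, saline irrigation and passage of the microcystoscope belonged to the TULP procedure. Their effects cannot be told apart from that of the laser in this comparison. Each group held 4 animals with 1 one-colour Agilent array each, and the groups rest on the sample titles, because the free-text descriptions of the TULP samples name a sham operation. The tissue was taken in bulk and can hold urothelium, stroma, prostate, muscle and inflammatory cells, so fewer cells of a type and less RNA per cell cannot be told apart in any value below.

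Each array carried 12128 spots of rat probes and 0 of them were saturated. All 8 arrays shared 1 slide. In the first slide row lay TULP replicates 1, 2 and 3 together with sham replicate 4, and the second row held the other arrays. After normalization, TULP replicate 1 stood apart from the other TULP arrays in the 3p arm and in the summed epithelial markers. Values without it are given for both arms, for their nearest miRNAs and for the marker lists.

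A microRNA hairpin is cut into a pair of short strands, one from each side of the stem. A strand loaded into an Argonaute protein pairs with target messenger RNAs through its seed, bases 2 to 8, so the strands of one hairpin recognise different targets. miR-378a is transcribed with Ppargc1b and is known for roles in mitochondrial energy use and lipid storage, and it is abundant in skeletal muscle, heart and brown fat. The 3p strand is regarded as the guide and the 5p strand, once named miR-378*, as its less abundant partner.

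The mature strands in the RefSeq table for the rat (build GRCr8) are shown to let the seeds, in capitals, be compared with the stretch that the array can see.
rno-miR-378a-5p: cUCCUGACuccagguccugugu
rno-miR-378a-3p: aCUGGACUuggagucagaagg
The seeds differed from each other. Among 693 named rat mature sequences in that table, 1 held each seed, the strand itself in both cases. The table holds no mature sequence for miR-378b.

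The array read each strand with 2 probes of unequal length, and each probe had 8 spots per array. The probes are complementary to the 3' part of the strand and their letters show how much of it they cover.
5p, longer probe: acacaggacctggagtca
5p, shorter probe: acacaggacctggagtc
3p, longer probe: ccttctgactccaa
3p, shorter probe: ccttctgactcca
The 5p probes, of 18 and 17 bases, pair with bases 5 to 22 and 6 to 22 of rno-miR-378a-5p. The 3p probes, of 14 and 13 bases, pair with bases 8 to 21 and 9 to 21 of rno-miR-378a-3p, so they touch the last base of the seed or none of it. Each probe target occurred in 1 named rat mature sequence of the table. The files list the names rno-miR-378b, the older rno-miR-378 and rno-miR-378a-3p for the 3p probes, and a signal from miR-378b cannot be told apart from one of miR-378a-3p with them.

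In the coordinates of the files (rat build rn4, minus strand), the longer 5p probe lies at chr18:57377813-57377829 and the longer 3p probe at chr18:57377854-57377866. Both are at the miR-378a hairpin, and the files give the rno-miR-378b probes no other position. In the RefSeq gene table, Mir378 lies within the bounds of Ppargc1b on the same strand, and Mir378b is a separate gene on another chromosome.

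In the 5p arm, the signal was lower on all 4 TULP arrays. The normalized total of rno-miR-378a-5p on the log2 scale was 4.28, 4.35, 4.48 and 4.96 on sham replicates 1 to 4. It was 3.09, 3.04, 3.27 and 4.03 on TULP replicates 1 to 4. The highest TULP array, replicate 4, lay 0.24 below the lowest sham array, so the groups did not overlap. The sham mean was 4.52 ± 0.31 (SD, n = 4) and the TULP mean 3.36 ± 0.46 (SD, n = 4), a difference of -1.16 with a limma SE of 0.26, or 2.23-fold lower.

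**Figure D1:**
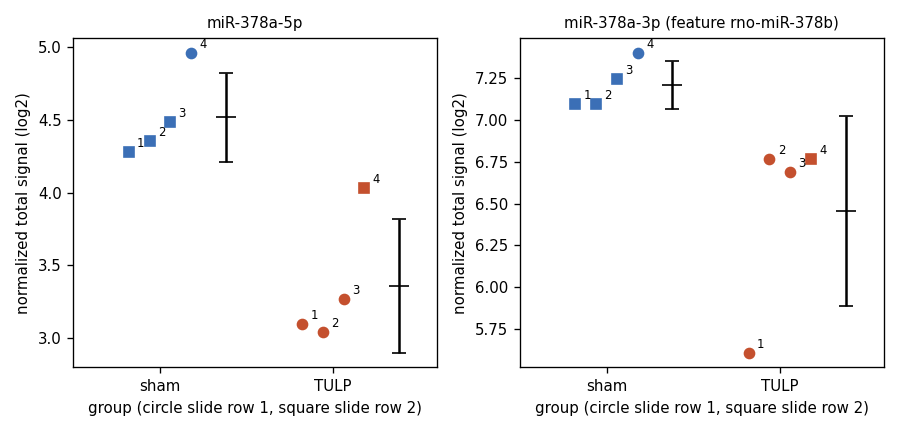
Normalized total signal (log2) of the 5p arm (left) and of the 3p arm, read as feature rno-miR-378b (right), on each array, with the replicate number beside each point, circles for slide row 1, squares for slide row 2, and mean ± SD (n = 4) in black. All TULP arrays lie below all sham arrays in both arms, and TULP replicate 1 lies at 5.61 in the 3p arm, apart from the other TULP arrays.

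The 3p arm was lower as well. The normalized total of rno-miR-378b, the reading of rno-miR-378a-3p, was 7.10, 7.10, 7.25 and 7.40 on sham replicates 1 to 4 on the log2 scale. On TULP replicates 1 to 4 it was 5.61, 6.76, 6.69 and 6.76. The groups did not overlap, with a gap of 0.33. On this normalized scale the sham arrays lay close together while TULP replicate 1 lay far below the others. The means were 7.21 ± 0.14 (SD, n = 4) and 6.46 ± 0.57 (SD, n = 4), a difference of -0.75 (limma SE 0.27), or 1.69-fold lower. Without TULP replicate 1 the difference was -0.47, while that of the 5p arm was -1.08. Before any normalization the sham arrays of the 3p feature spread more (SD 0.45) than the TULP arrays (SD 0.32). TULP replicate 1 was then at 5.55, and TULP replicates 2 to 4 were at 6.20, 6.10 and 6.24.

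Both members thus lay lower on every TULP array, and over all 151 miRNAs tested 22 (14.6%) did so. The members were chosen on this contrast, and nothing is read from that count. Ordered from the most negative change, the 5p arm came at place 6 and the 3p feature at place 17 of 151.

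Single probes showed the same order of groups before any normalization. On the unnormalized scale, the longer 3p probe read 66.4 to 144 (intensity) on sham arrays and 28.8 to 45.9 on TULP arrays. The shorter 3p probe read 46.6 to 96.7 and 18.1 to 29.6. All 8 spots of both 3p probes were well above background on every array. These ranges did not overlap for either probe, and the mean log2 signals were lower in the TULP group by 2.46-fold for the longer probe and 2.66-fold for the shorter one.

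The 5p probes were dimmer. The longer one read 11.9 to 27.8 on sham arrays and 6.76 to 9.48 on TULP arrays, with 8 of 8 spots well above background on each sham array and 5 to 8 on TULP arrays. The shorter one read 7.004 to 15.2 on sham arrays, with 5 to 8 spots well above background, and 2.65 to 4.20 on TULP arrays, with 0. The coefficient of variation between spots of a probe had a median of 18.2% for the shorter 5p probe and 11.4% for the longer one, against 3.42% and 4.55% for the shorter and longer 3p probes. The 3p values therefore rest on the tighter measurement.

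This dimness decided how the total of the 5p arm was built. A probe was counted as detected where its signal exceeded 3 times its error. The longer 5p probe was detected on 8 arrays, with a signal of 4.57 to 9.12 times its error. The shorter one was detected on the 4 sham arrays and on TULP replicate 4 (3.16 times its error). On TULP replicates 1, 2 and 3 it stood at 2.32, 2.44 and 1.95 times its error and was not counted, so the total there came from 1 probe.

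For those 3 arrays, the total stored by the scanner software exceeded anything the probes held. The sum of detected 5p probes before normalization was 18.9, 22.7, 25.5 and 43.0 on sham replicates 1 to 4, and the stored totals there were equal to it. On TULP replicates 1 to 4 the sum was 7.27, 6.76, 8.38 and 13.7, and the stored totals were 47.1, 18.2, 45.7 and 13.7. Where both probes were detected the stored total equalled their sum, and where 1 was missing it was 2.69 to 6.47 times the detected signal. Adding the undetected probe back gave only 10.6, 10.0 and 11.0 on TULP replicates 1, 2 and 3. For the 3p feature, whose probes were detected on all 8 arrays, stored and summed totals were the same.

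**Figure D2:**
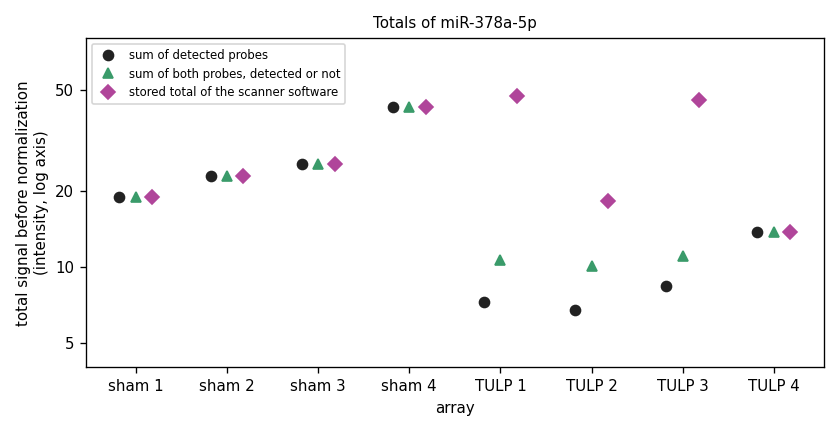
Total signal of miR-378a-5p before normalization (intensity, log axis) on each array as the sum of detected probes (black circles), the sum of both probes whether detected or not (green triangles) and the total stored by the scanner software (purple diamonds). The 3 totals coincide on the sham arrays and on TULP replicate 4, and the stored total lies above both sums on TULP replicates 1, 2 and 3.

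The choice of total set the direction of the 5p arm. With stored totals, its difference was 0.18 in place of -1.16, and with both probes always summed it was -0.87. With the longer probe alone it was -0.67, and the groups then overlapped. The 3p feature gave -1.05, -0.77 and -0.74 in the same order. The direction of the 5p arm on stored totals therefore differed from that of each of its own probes.

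This gap was not particular to miR-378a-5p. Among all detected totals, the stored value equalled the probe sum to within 0.1% in 759 of 759 cases with every probe detected, and exceeded it in 352 of 432 cases with some probe undetected, by a median factor of 6.85. Totals with an undetected probe made up 32.4% of detected totals on sham arrays and 40.3% on TULP arrays. Of the tested miRNAs whose probes were all detected wherever the miRNA was, 12 of 76 had the opposite sign of change on stored totals. Of those with an undetected probe on some array 38 of 75 did, miR-378a-5p among them. Before normalization, the stored and summed totals of the first set were equal. Among miRNAs past the adjusted p on summed totals, 0 of 26 in the first set and 6 of 20 in the second had the opposite sign.

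Signals were quantile normalized, so each difference above is relative to the other miRNAs of an array. With arrays scaled to the labelling spike-ins, which are RNAs spiked at a fixed amount ahead of labelling, the median change of the 151 miRNAs was -0.78. The 5p arm then changed by -1.83 (3.54-fold lower) and the 3p feature by -1.57 (2.98-fold lower), which is -1.04 and -0.79 relative to that median. Without any normalization the differences were -1.60 and -1.34. In the deposited table of log2 values, they were -1.15 for the 5p arm and -0.79 for the 3p feature, and again no TULP array reached a sham array.

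The arrays of the slide rows were also compared separately. With slide row as a block, the differences were -1.08 (5p) and -0.71 (3p). Within the first row, 1 sham array against 3 TULP arrays, they were -1.82 and -1.05. Within the second row, 3 sham arrays against 1 TULP array, they were -0.34 and -0.38. Each row held a single array of one of the groups, so a difference between rows cannot be told apart from one between animals. The normexp background correction (offset 50), which adds a constant to dim and bright spots alike, gave -0.20 for the dim 5p arm and -0.61 for the 3p feature.

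**Figure D3:**
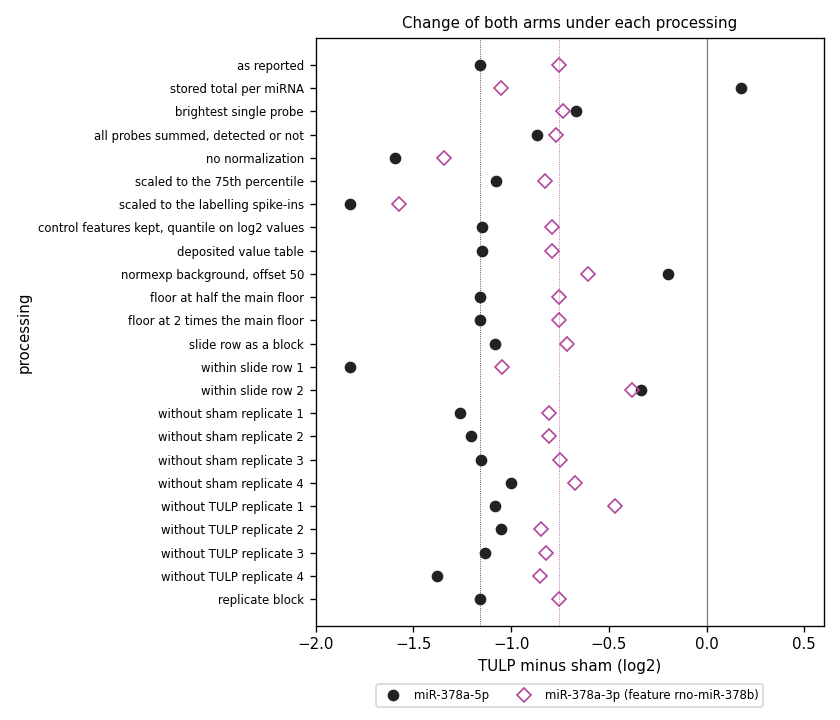
Difference between TULP and sham groups (log2) of miR-378a-5p (filled circles) and of the 3p arm, read as feature rno-miR-378b (open diamonds), under the processing reported (top, dotted lines) and each alternative. The 5p arm lies above 0 only on the stored totals (0.18), and the 3p arm lies below 0 under every processing shown.

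Whether the arms moved by the same amount was set by the processing. The 3p change minus the 5p change was 0.40 with an SE of 0.30 from the spread between arrays. As the per-array difference of the log2 values of the arms, it was 2.82, 2.74, 2.76 and 2.44 on sham replicates 1 to 4 and 2.51, 3.72, 3.42 and 2.73 on TULP replicates 1 to 4. The groups overlapped, with TULP replicates 2 and 3 above all sham arrays and TULP replicates 1 and 4 among them. These values track the shift within an array and do not compare the abundance of the strands. On the longer probe of each arm alone the difference of the changes was -0.07, and on stored totals it was -1.23.

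Of the hairpins on the array, 12 had both arms tested, counting miR-378a with its 3p feature. The 3p change minus the 5p change ran from -0.36 to 0.78 with a median of -0.07, and both arms changed with the same sign in 10 of the 12. Only 2 hairpins lay above miR-378a. They were miR-652 (0.78) and miR-29c (0.51), whose 5p arms were detected on 7 and 4 arrays, and the most negative were those of miR-199a (-0.36) and miR-466b (-0.34). miR-133a, a muscle hairpin whose arms fell by 0.93 (5p) and 0.96 (3p), gave -0.03.

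**Figure D4:**
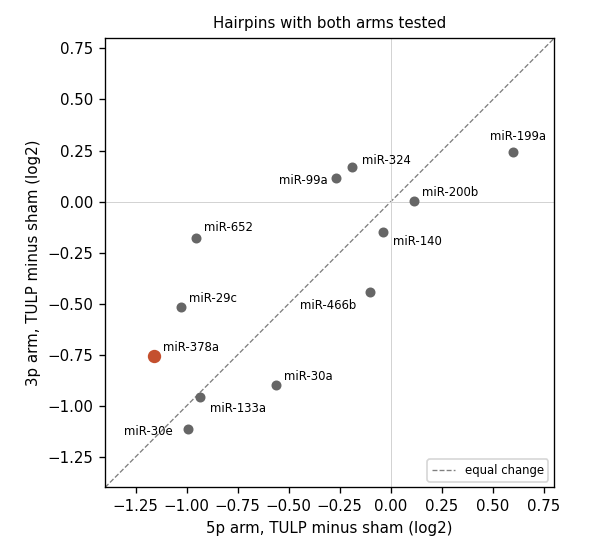
Change of the 3p arm against change of the 5p arm (TULP minus sham, log2) for the 12 hairpins with both arms tested, with the line of equal change dashed and miR-378a in orange. miR-378a lies in the lower left with both arms down, above the line by 0.40.

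The files place 2 other hairpins within 1 Mb of miR-378a on rn4, miR-143 and miR-145, which lie 246 to 247 kb away on the same strand and are known for their high levels in smooth muscle. miR-143-3p was at 9.67, 9.80, 9.67 and 9.29 on sham replicates 1 to 4 and at 10.32, 9.67, 9.42 and 9.29 on TULP replicates 1 to 4 (log2). Its change of 0.07 (SE 0.24) did not pass (limma adjusted p = 0.905). miR-145-5p changed by -0.63 (SE 0.44, limma adjusted p = 0.356) and its groups overlapped. Neither value shows that these miRNAs were equal between groups. The other strands of both hairpins were detected on no array. Scaled to the labelling spike-ins, miR-143-3p changed by -0.98 and miR-145-5p by -1.24, and both then passed (limma adjusted p = 0.0150 and 0.0209).

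The miRNAs whose values ran most like those of miR-378a over the 8 arrays were found by correlation. The measure was Pearson's r of normalized log2 values with the other 121 miRNAs detected on all 8 arrays. It is given as a description, since arrays of a group share a treatment. The group difference enters r, which favours miRNAs that were lower in the TULP group. For the 5p arm, the nearest were miR-133a-3p (r = 0.969), miR-196a-5p (0.952) and miR-486 (0.939). With each group's mean taken out, these were 0.893, 0.908 and 0.853, which put miR-196a-5p at place 1. Without TULP replicate 1 they were 0.967, 0.945 and 0.933, at places 2, 4 and 5.

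For the 3p feature the nearest were miR-133b-3p (r = 0.965), miR-133a-3p (0.869) and miR-486 (0.851). With group means taken out they were 0.974, 0.763 and 0.668, at places 1, 10 and 13 of 121. Without TULP replicate 1 they were 0.940, 0.962 and 0.838, at places 9, 4 and 23, so the order of likeness to the 3p feature rests in part on that array. The arms of miR-378a had an r of 0.785 with each other, 0.457 with group means taken out, and 0.902 without TULP replicate 1.

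**Figure D5:**
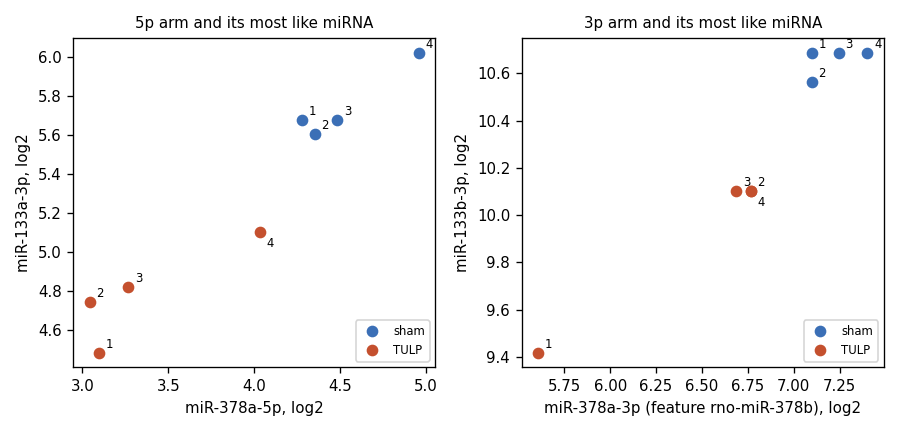
Normalized log2 level of miR-378a-5p against miR-133a-3p (left) and of the 3p arm, read as feature rno-miR-378b, against miR-133b-3p (right) on the 8 arrays, sham in blue and TULP in orange, with replicate numbers. Sham arrays lie at the upper right and TULP arrays at the lower left, with TULP replicate 1 lowest in the right panel (5.61 for the 3p arm).

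The RefSeq table holds no mature sequence for miR-486. Mature strands of the other nearest miRNAs are shown with seeds in capitals, to show that none of these has a seed of miR-378a.
rno-miR-133a-3p: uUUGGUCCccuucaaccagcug
rno-miR-133b-3p: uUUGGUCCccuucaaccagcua
rno-miR-196a-5p: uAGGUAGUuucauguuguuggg
miR-133a-3p and miR-133b-3p, which are made in striated muscle, share their seed and differ by G22A, counted from the 5' end of miR-133a-3p. Their probes may bind both, and their separate values are uncertain to that extent. miR-196a-5p comes from the Hox clusters and is one of the metabolic miRNAs below. Its change was -0.60 (SE 0.21, limma adjusted p = 0.0644), which did not pass, and it passed in 6 of 27 alternatives. Scaled to the labelling spike-ins, it changed by -1.36 (limma adjusted p = 0.00224). miR-486 is found in red blood cells and in muscle. It was named for its likeness to miR-378a, whose members were chosen on this contrast, so its change is given without a test. That change was -0.79 (SE 0.25), and -1.53 to -0.12 over its alternatives.

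The striated muscle list was chosen because miR-378a is abundant in that tissue. Of its 8 miRNAs, 5 were tested, of which 4 fell and 0 rose, where 25 of all 151 tested miRNAs (16.6%) fell. The median change of the 5 was -0.74, against -0.02 for all tested. miR-133a-3p fell from 5.75 ± 0.19 to 4.79 ± 0.26 (SD, n = 4 per group; -0.96, SE 0.16, limma adjusted p = 0.00605). On stored totals miR-133a-3p changed by only -0.31 and did not pass (limma adjusted p = 0.677). miR-1-3p fell from 11.32 ± 0.31 to 10.58 ± 0.22 (-0.74, SE 0.18, limma adjusted p = 0.0201). miR-133a-5p and miR-133b-3p fell by 0.93 and 0.72 (limma adjusted p = 0.0230 and 0.0163). Like miR-378a-5p, miR-133a-5p had an undetected probe on some arrays, 2 sham and 4 TULP, and on stored totals it changed by 0.04 (limma adjusted p = 0.943, and 0.00178 to 0.943 over its alternatives).

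miR-206-3p, which marks skeletal muscle and its precursors, changed by 0.25 (SE 0.45, limma adjusted p = 0.795) and by -0.72 when scaled to the labelling spike-ins. Without TULP replicate 1, on which it was at 8.71, its change was 0.71 (limma adjusted p = 0.0487, and 0.0487 to 0.978 over its alternatives). miR-208a-3p, miR-208b-3p and miR-499-5p, from the myosin genes of heart and slow muscle, were detected on no array. The summed normalized signal of the list was 4069 to 5703 on sham arrays and 2657 to 4663 on TULP arrays, lowest on TULP replicate 1, as the 3p arm of miR-378a was. The part of this tissue in the lower level of miR-378a was not tested. Without TULP replicate 1, 4 fell and 1, miR-206-3p, rose, where 57 of all 149 miRNAs then tested passed in either direction. The count of 4 that passed was 1 with slide row as a block (miR-133a-3p) and 1 on stored totals (miR-1-3p). Without single arrays it was 1 to 5 in either direction, lowest without sham replicate 3 and 2 without sham replicates 1 or 4 or TULP replicates 2 or 3.

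On the quantile normalized scale, the other miRNAs known for lipid, insulin, thermogenic or mitochondrial functions changed in both directions. Of 16 listed, 11 were tested, of which 1 rose, 2 fell and 8 did not pass. Over all miRNAs 46 of 151 (30.5%) passed the adjusted p in either direction. The list lay near that share, and nothing particular to it is read from the count. Its median change was -0.11, and -0.82 scaled to the labelling spike-ins, against -0.78 for all tested. miR-30c-5p, of a family that acts on lipid secretion among much else, fell from 7.67 ± 0.10 to 6.96 ± 0.04 (SD, n = 4 per group; -0.71, SE 0.08, limma adjusted p = 0.00313). miR-30b-5p fell by 0.75 (SE 0.20, limma adjusted p = 0.0257). Like miR-378a-5p it had an undetected probe on some arrays, 2 sham and 4 TULP, and it changed by 0.57 on stored totals (limma adjusted p = 0.630, and 0.00178 to 0.630 over its alternatives).

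miR-34a-5p, a target of p53 that also acts on fat and liver metabolism, rose from 4.95 ± 0.13 to 5.90 ± 0.44 (0.95, SE 0.22, limma adjusted p = 0.0161). Its seed and that of miR-30c-5p are shown because both are among the metabolic miRNAs that moved, and neither seed is that of miR-378a. The RefSeq table holds no mature sequence for miR-30b-5p, which also fell.
rno-miR-30c-5p: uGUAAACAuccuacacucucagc
rno-miR-34a-5p: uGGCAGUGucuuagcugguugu
Scaled to the labelling spike-ins, miR-34a-5p changed by 0.14 and did not pass (limma adjusted p = 0.642, and 0.00111 to 0.642 over its alternatives). Under that scaling 0 of the 11 rose and 7 fell, while over all 151 miRNAs 5 rose and 82 fell.

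Among the members that did not pass, miR-103-3p and miR-107-3p, which lie in pantothenate kinase genes and act on insulin signalling, changed by -0.02 (SE 0.12) and -0.24 (SE 0.12), with limma adjusted p = 0.955 and 0.180. miR-27a-3p and miR-27b-3p, inhibitors of fat cell formation, changed by 0.30 and 0.04 (limma adjusted p = 0.0905 and 0.879). The brown fat miRNAs miR-193b-3p and miR-455-5p, the cholesterol regulator miR-33-5p and the liver miRNA miR-122-5p were detected on no array. miR-455-3p was detected on 1 sham array. With slide row as a block 2 of the 3 changes of the list passed, and on stored totals 1 did, as without sham replicate 4.

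Of the other cell type markers, only leukocyte miRNAs included some that passed with all arrays kept. Of 7 tested, 3 rose and 0 fell, where 21 of all 151 (13.9%) rose and 25 (16.6%) fell, and the summed normalized signal of the list was 82.4 to 122 on sham arrays and 187 to 282 on TULP arrays. The risers were miR-146b-5p (2.90), miR-223-3p (2.10) and miR-142-3p (2.01), with limma adjusted p = 0.00320, 0.00313 and 0.0163. miR-142-3p was detected on only 2 sham arrays, and its change was 1.51 to 2.51 with other floors. In the deposited table it did not pass (limma adjusted p = 0.0797). Of the 4 that did not pass, miR-150-5p went down by 0.59 without overlap of the groups (limma adjusted p = 0.0737). The others, miR-155-5p, miR-146a-5p and miR-342-3p, changed by 0.89, 0.39 and 0.13. Of 7 tested epithelial miRNAs 0 passed, with a median change of -0.68, and their summed signal was 488 to 675 on sham arrays and 387 to 938 on TULP arrays, highest on TULP replicate 1 and 387 to 469 on the others. Without that array, 4 of the 7 fell, miR-200a-3p, miR-200c-3p, miR-205 and miR-375-3p, with a median of -0.9996 for the list. Of the leukocyte miRNAs 4 then rose, miR-155-5p being the one added. Leaving that array out also raised the count over all miRNAs, from 46 of 151 to 57 of 149 past the adjusted p in either direction. The smooth muscle sum was 648 to 928 and 634 to 1315, again highest on TULP replicate 1, and that of miR-126a, the endothelial marker, was 116 to 152 and 116 to 137, with 0 of 2 and 0 of 1 tested passing, also without TULP replicate 1. Scaled to the labelling spike-ins, 6 of 7 epithelial, 2 of 2 smooth muscle and 1 of 1 endothelial miRNAs fell, and 3 leukocyte miRNAs rose and 2 fell, where 5 of all 151 rose and 82 fell. The part of these markers in the values of miR-378a was not tested.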

How the data were processed

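Per the file headers, the authors read 1-colour Agilent rat miRNA arrays with Agilent Feature Extraction 10.7.1.1, and the deposited intensity per spot and probe is background subtracted and not normalized between arrays. A deposited table gives the authors' log2 values of 780 features, 22 of them controls, quantile normalized per their methods. The main signal here was the sum of gTotalProbeSignal over probes above 3 times their error, 0.1 where no probe was, quantile normalized over the 758 rat miRNAs, raised to a floor of 1.94 (0.96 in log2) and converted to log2. The 151 miRNAs detected on at least 4 of 8 arrays were tested with limma 3.58.1 in R 4.3.3 (lmFit, eBayes, group as the single term), two-sided, with Benjamini-Hochberg adjustment over all 151, and passed at an adjusted p under 0.05. A call also needed a change of more than 2-fold. The limma step alone was run on values simulated around the normalized ones, which does not cover probe detection, normalization or the floor. The number of arrays limits the precision.

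The members, lists, alternatives and tests were chosen with earlier results of these data known. Named were all miR-378 features, the 3 nearest miRNAs of each by correlation, miRNAs within 1 Mb, list members that passed, and the hairpins with the 2 highest and 2 lowest arm differences. Other miRNAs named, list members that did not pass and miR-133a among the hairpins, were added after their values were seen. Of 11 other miRNAs looked up by name, 9 had a mature sequence in the RefSeq table. Probe positions are those of the files (rn4).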

Additional observations from a re-analysis of the deposited data

Results flagged for a closer look

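In 4 of 22 groups of 4 arrays examined, 1 array lay farther from the rest than Dixon's limit allows. Chance gives about 5% of groups, or 1.1, but the groups share arrays and quantities and are not independent. All values examined were normalized. The 3p arm of miR-378a on TULP replicate 1 was at 5.61 (log2). The summed normalized signal of the epithelial list was high on the same array, at 938. That of the striated muscle list was low on sham replicate 2, at 4069, and that of the metabolic list was high on TULP replicate 2, at 844. No explanation was tested.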

How the results depend on the processing

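The change of miR-378a-3p was negative under all 23 alternatives and that of miR-378a-5p under all but stored totals, where it reversed to 0.18. Values moved by more than the spread between arrays for miR-378a-5p with the brightest single probe (-0.67), without normalization (-1.60), scaled to the labelling spike-ins (-1.83), under normexp (-0.20) and within slide rows 1 (-1.82) and 2 (-0.34), and for miR-378a-3p without normalization (-1.34) and scaled to the spike-ins (-1.57). The 3p change minus the 5p change reversed on stored totals (-1.23), with the brightest single probe (-0.066), under normexp (-0.41) and within slide row 2 (-0.045). Leaving out 1 array gave -1.38 to -1.0002 for the 5p arm, -0.85 to -0.47 for the 3p arm and 0.20 to 0.61 for their difference.

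With all arrays, 14 miRNAs were called, 8 higher and 6 lower. The count was 34 without normalization (5 higher, 29 lower), 53 scaled to the spike-ins (5 higher, 48 lower), 1 under normexp, 8 among miRNAs detected on all 8 arrays, 4 and 3 within slide rows 1 and 2, and 9 to 21 without single arrays (lowest when TULP replicate 3 was left out, highest for TULP replicate 1). The deposited table gave 6 higher and 8 lower. The metabolic count of 3 became 1 on stored totals, 7 scaled to the spike-ins, 5 under the methods' t-test with unadjusted p, 0 within each slide row, where 4 arrays were left, and 1 to 4 without single arrays. The striated muscle count of 4 became 1 on stored totals, 1 with slide row as a block, 0 within each slide row and 1 to 5 without single arrays. The cause was not tested. The methods' t-test called 18 with unadjusted p and 12 after adjustment.

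The replicate numbers shared by the groups gave correlations of the deviations from group means between -0.10 and 0.27 over 4 pairs, and are not known to pair animals. With the replicate number as a block (replicate block), 11 miRNAs were called, and the metabolic and striated muscle counts stayed at 3 and 4. Signal over background limits the 5p arm, whose shorter probe was not well above background on any TULP array. Summing all probes, detected or not, was added after seeing the data.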
